A study of Mus musculus with 45 samples.

Results

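The data compared mouse neural progenitor cells carrying inducible Oct4, Klf4, Myc and Sox2 (OKMS) with progenitors carrying inducible Oct4, Klf4 and Sox2 but no introduced Myc (OKS), over the first 6 days after induction. Libraries were chosen as the OKMS and OKS libraries of days 2, 4 and 6 in FBS-LIF medium with doxycycline that had a counterpart of the other system on the same day and sequencing chemistry. That gave 10 of the 45 libraries of the series, in 5 pairs. Nanopore R9 flow cells gave the pairs of days 2, 4 and 6, from direct cDNA of poly(A)-enriched RNA. Nanopore R10 flow cells gave the pairs of days 2 and 6, from PCR-amplified cDNA of total RNA.

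All progenitors came from O4G, an embryonic stem cell line with a green fluorescent reporter under Oct4, and the OKMS and OKS cells were stably transfected. The labels give the genotypes OKMS-Luciferase-AS and OKS-Luciferase-AS. They do not say what the luciferase part does, and both systems carry it. Doxycycline switched the factors on, and the whole culture was collected, so fewer cells of a type and less RNA per cell cannot be told apart. The labels name no separate clones or lines within a system, so a difference between lines cannot be told apart from a difference between factor sets. The uninduced progenitors of both lines (4 libraries in progenitor medium) and wild-type progenitors kept for 2 days in the same FBS-LIF with doxycycline (3 libraries) were used as references. Whether R9 and R10 shared cultures or RNA on a given day is not stated in the labels, so p-values measure only the spread between these libraries.

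Myc is a basic helix-loop-helix leucine zipper transcription factor that pairs with Max and binds E-box sequences, best known for raising genes of ribosome assembly, nucleotide synthesis and cell division. Oct4 (gene Pou5f1), Sox2 and Klf4 can reset somatic cells to pluripotency without it. In that process cells lose the expression programme of their origin, gain epithelial adhesion and only later switch on the pluripotency network. Introduced Myc is known to make reprogramming faster and more efficient. Neural progenitors already express Sox2 and divide in EGF and FGF2, whereas serum with LIF favours glial and mesenchymal-like states.

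Each gene was measured in CPM, reads of the gene scaled to a common library total. OKMS libraries held 478805 to 1264272 reads and OKS libraries 746667 to 2678385, and OKMS was the shallower library in 4 of the 5 pairs by number of reads. Genes above 0 numbered 13297 to 16721 in OKMS and 14992 to 18587 in OKS. Mitochondrial reads made up 0.523% to 1.51% of OKMS libraries and 0.727% to 1.64% of OKS libraries. The part of mitochondrial share in the results was not tested, and that of depth was examined by thinning reads to the shallowest library. Below, values per library run in the order R9 day 2, day 4, day 6, then R10 day 2, day 6.

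The introduced factors were checked first. Myc (chr15:61985361-61990360 of mm10) stood at 74.6, 87.6, 66.9, 103 and 136 CPM in OKMS and at 20.1, 57.2, 54.9, 25.0 and 41.4 CPM in OKS. Every OKMS library was above every OKS library. The difference of log2(CPM + 1) was 1.28 ± 0.26 (SE), with a limma adjusted p of 0.00328, and Myc was higher in 5 of 5 pairs. The call was lost with R9 pairs only (0.91, limma adjusted p = 0.0578) and with R10 pairs only (1.84, limma adjusted p = 0.0623). Uninduced progenitors held 75.9 to 156 CPM, so the OKMS level lay near the starting level and the OKS level below it. Wild-type cells after 2 days in the same medium held 7.07, 5.87 and 14.8 CPM.

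The other factors, present in both systems, differed less in CPM. Klf4 stood at 59.9, 64.7, 91.4, 141 and 252 CPM in OKMS and 50.8, 61.0, 83.0, 117 and 143 CPM in OKS, against 4.04 to 5.27 CPM before induction. Pou5f1 stood at 52.0, 48.0, 330.2, 126 and 270.3 CPM and 62.8, 60.1, 107, 141 and 176 CPM, against 0 to 3.51 CPM before induction. Sox2 stood at 121, 119, 145, 101.2 and 113 CPM and 96.3, 166, 100.4, 138 and 149 CPM. The mean differences over the pairs were 0.31 for Klf4, 0.30 for Pou5f1 and -0.09 for Sox2 on the log2 scale, and the signs of the last pair of values depend on single libraries or scaling. Exact two-sided sign-flip permutation tests over 5 pairs gave p = 0.0625 for Myc and Klf4, the smallest p this design allows. The same test gave 0.5625 for Pou5f1 and 0.6875 for Sox2. Adjusted over the 4 factors (Benjamini-Hochberg), the exact permutation p-values were 0.125, 0.125, 0.6875 and 0.6875. Pou5f1 and Sox2 were each higher in 2 of 5 pairs.

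The deposited transcript table separates reads that match a known transcript from end to end in splicing from other reads of the gene. Such full-splice Myc transcripts summed to 3.48, 12.9, 2.15, 9.91 and 9.34 TPM in OKMS and to 7.27, 18.8, 27.2, 13.2 and 22.6 TPM in OKS. They were lower in OKMS in all 5 pairs, the opposite of the gene's CPM. Full-splice Pou5f1 transcripts summed to 1.80, 9.53, 278, 2.57 and 73.9 TPM in OKMS and to 0, 4.81, 0, 0 and 1.48 TPM in OKS. Those of day 6 in OKMS stood far above the rest. CPM of these 4 genes can include reads from the introduced copies, and their share was not tested.

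**Figure D1:**
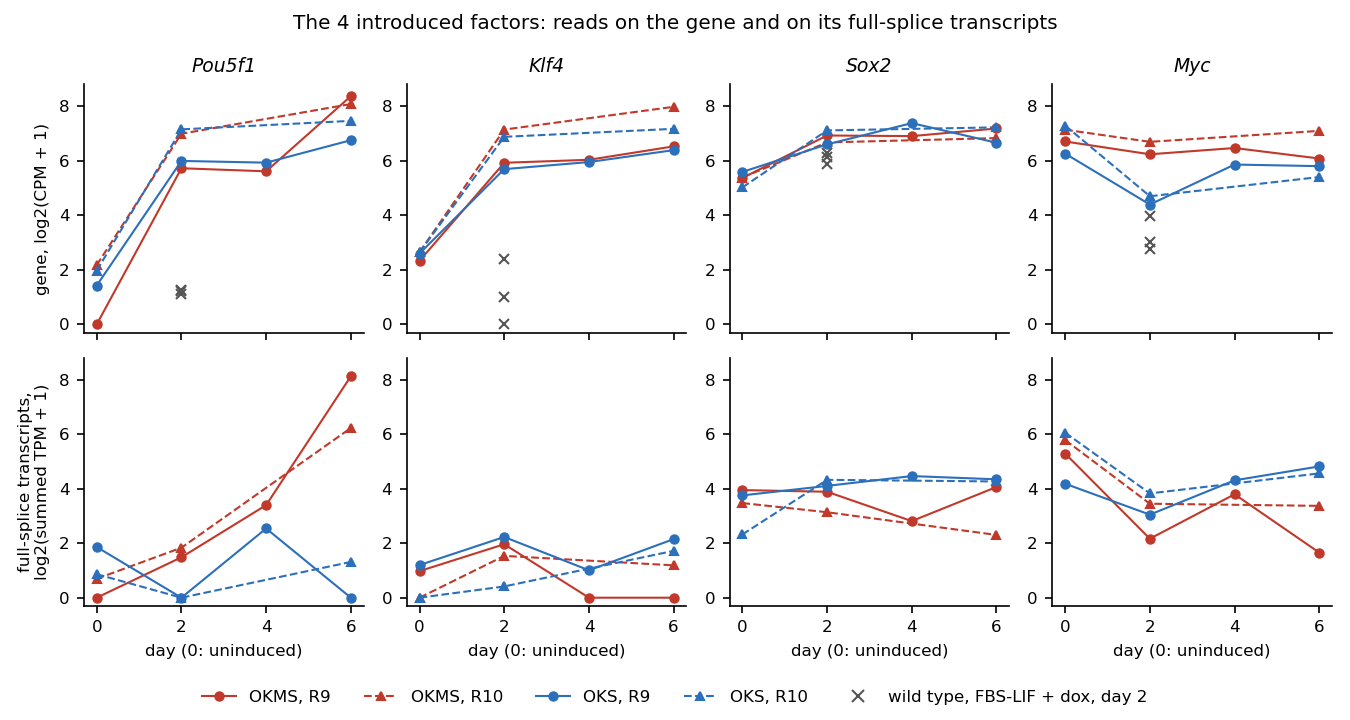
Levels of the 4 introduced factors by day, as log2(CPM + 1) of the gene (top) and log2(summed TPM + 1) of its full-splice transcripts (bottom), with 1 point a library and crosses for wild-type cells at day 2. Myc reads of the gene lie higher in OKMS at days 2 to 6, while full-splice Pou5f1 transcripts reach 278 and 73.9 TPM in OKMS at day 6.

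Over all genes, 3877 of 14530 tested genes differed (limma with the pair as a block, Benjamini-Hochberg adjusted p under 0.05 and a log2 difference of at least 1), which is 26.7% of those tested. OKMS was higher for 1539 genes (10.6%) and lower for 2338 (16.1%), the shares beside which every count of list members called in this comparison is to be read. The median gene lay at -0.17. Centring each library on its median moved it to -0.02 and gave 1939 higher and 1933 lower, and quantile normalization gave 1849 and 1832, so the balance of directions rests on the scaling. In the uninduced progenitors the lines differed by at least 1, in either direction, for 763 of the 14530 genes (5.25%). Of the genes called higher in OKMS, 17 (1.10%) already differed that much in that direction before induction, and of those called lower, 89 (3.81%). These shares count 1 direction only, so they do not compare directly with the 5.25%.

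Of the largest rises in OKMS, Tfap2c, Foxd1 and Anxa8 were at 0 to 1.17 CPM in uninduced progenitors, and Hmga1b was at 8.43 to 17.6 CPM. Hmga1b (chr11:120762793-120764384), a copy of the chromatin architectural gene Hmga1, stood at 88.1, 215, 258, 115 and 309 CPM in OKMS and 4.01, 3.81, 2.68, 12.7 and 25.2 CPM in OKS, a log2 difference of 4.48 ± 0.39 (SE). Its sequence is nearly that of Hmga1, so how reads were split between the copies is uncertain. Tfap2c, a transcription factor of trophoblast, germ cells and surface ectoderm, stood at 4.52, 29.2, 36.8, 8.69 and 93.6 CPM in OKMS and 0, 0, 0, 0 and 2.56 CPM in OKS. Its OKMS values were highest at day 6, and 4 of the 5 OKS libraries listed 0. Foxd1, a forkhead factor of kidney stroma and developing forebrain, stood at 9.04, 54.3, 47.8, 1.58 and 22.1 CPM against 0, 0, 0, 0 and 1.28 CPM. Anxa8, an annexin of stratified epithelia, stood at 33.9, 98.1, 57.3, 30.8 and 122 CPM against 0, 1.91, 4.02, 2.99 and 4.69 CPM. The groups did not overlap for any of these 4 genes, as for 1041 of the 1539 genes called higher in OKMS. These 4 come from the largest rises with 1 sign in all 5 pairs, so their separation is no separate support. Tfap2c, Foxd1 and Anxa8 could also pass the filter through OKMS alone.

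Prelid2 (chr18:41875583-41976632), which encodes a protein of the PRELI family of mitochondrial lipid carriers, had the largest difference among annotated genes with 1 sign in all 5 pairs, 5.17 ± 0.64 (SE). It stood at 5.65, 85.6, 115, 32.4 and 384 CPM in OKMS and 0, 0, 0, 2.99 and 2.56 CPM in OKS. Krtdap, a secreted protein of differentiating keratinocytes, stood at 15.8, 27.1, 42.3, 7.90 and 246 CPM against 0, 0, 0, 1.49 and 3.84 CPM. Rpph1, the RNA component of ribonuclease P, stood at 17.0, 10.4, 16.4, 45.1 and 111 CPM against 1.34, 0, 0, 7.46 and 0 CPM and was listed at 0 in all uninduced and wild-type libraries. It carries no poly(A) tail and in OKMS was higher in the R10 libraries, which used total RNA. The helicase-like gene Dqx1 (3.77), Glod5 (3.76) and the X-linked 2010204K13Rik (3.58) completed the 10 largest log2 rises among annotated genes with 1 sign in all 5 pairs. The last of these was at 102 to 164 CPM in progenitors, 107 to 219 CPM in OKMS and 10.5 to 14.7 CPM in OKS. Prelid2, Krtdap, Rpph1 and Glod5 could pass the filter through OKMS alone, so their values are a description.

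Several of the largest falls were genes of extracellular matrix. Fmod, fibromodulin, which binds collagen fibrils, stood at 141, 41.7, 30.0, 53 and 8.83 CPM in OKMS and 275, 606, 946, 148 and 401 CPM in OKS, a log2 difference of -3.31 ± 0.56 (SE). Mfap5, a protein of elastic microfibrils, stood at 23.7, 10.4, 9.55, 13.4 and 0.883 CPM against 82.9, 267, 376, 32.1 and 145 CPM. OKS values of both genes lay above the progenitor range (Fmod 0 to 3.51 CPM, Mfap5 0 to 0.584 CPM), and the wild-type cells in FBS-LIF held 163, 175 and 309 CPM of Fmod. The other matrix genes named were Col23a1, a transmembrane collagen (-3.48), Egflam, also called pikachurin (-3.31), and Spon2, a secreted spondin (-3.27). Cdo1, which oxidises cysteine (-3.51), the beta-defensin Defb1 (-3.72), the focal adhesion adaptor Lims2 (-3.35) and Pex5l (-3.29) made up the rest of the log2 falls with Resp18.

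Resp18 (chr1:75272199-75278468), a protein of neuroendocrine secretory granules, had the largest fall among annotated genes with 1 sign in all 5 pairs, -4.65 ± 0.39 (SE). It stood at 0, 0, 0, 0.79 and 0.883 CPM in OKMS and 17.4, 18.1, 14.7, 65.3 and 89.6 CPM in OKS. It was at 0 to 1.17 CPM in progenitors and listed at 0 in the 3 wild-type libraries, so among these libraries it was high only in induced OKS cells. The largest differences among genes without annotation lay at chr4:126984043-126984535 and, antisense to Hmga1b, at chr11:120762900-120764422 for rises (3.75 and 3.34), and at chr5:14945279-15038340 and chr8:21980522-21991337 for falls (-3.22 and -3.12). Whether the counting used strand is not given in the sources used here, so the antisense gene cannot be told apart from Hmga1b.

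**Figure D2:**
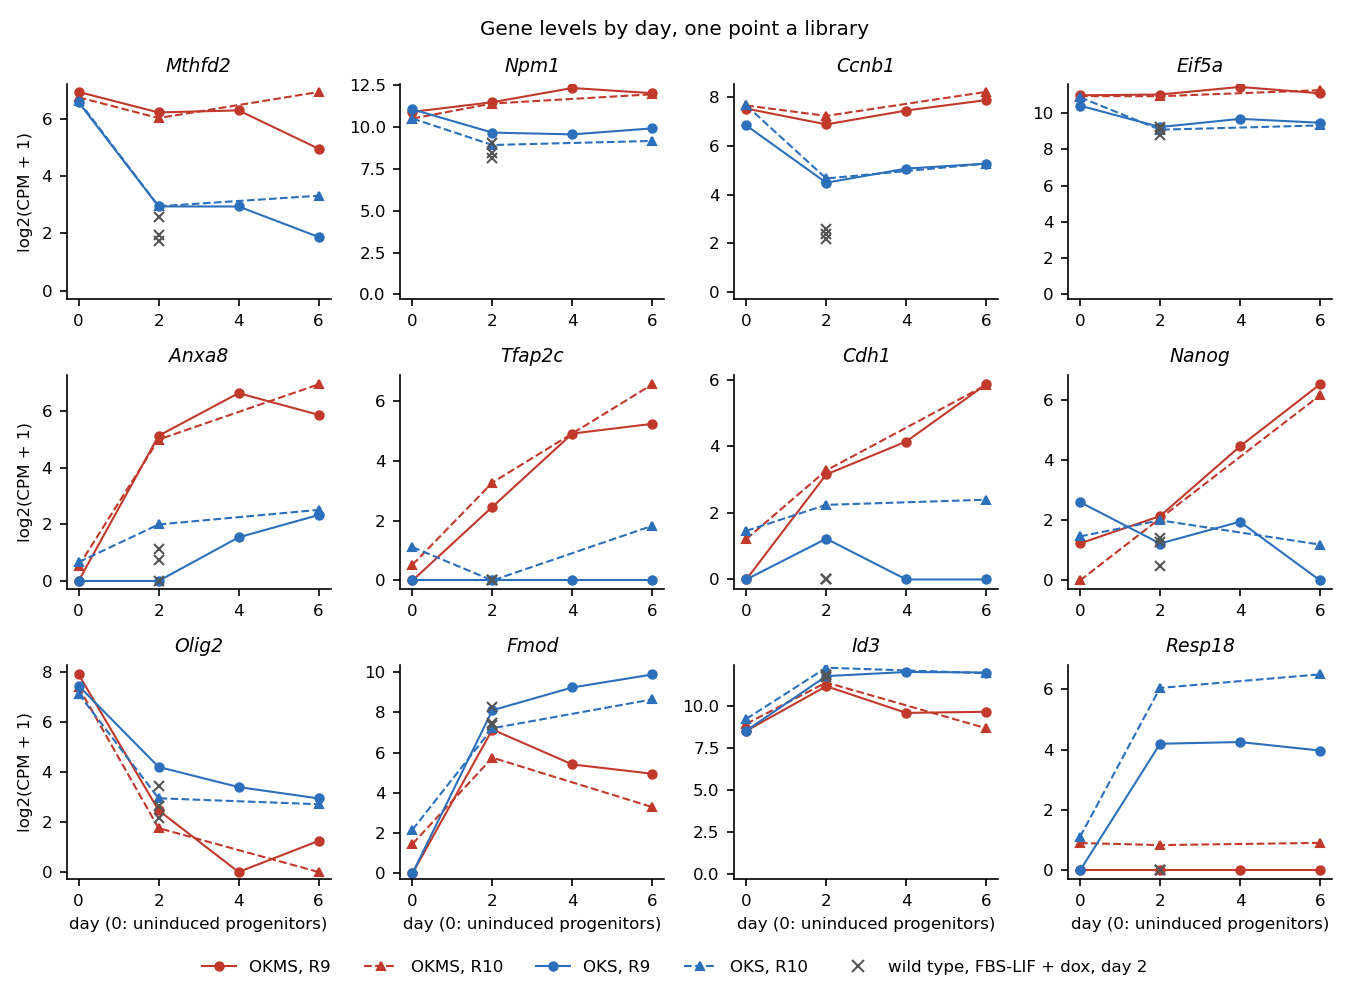
Levels of 12 genes by day as log2(CPM + 1), 1 point a library, with uninduced progenitors at day 0 and crosses for wild-type cells at day 2. In the top row, growth and division genes lie lower in OKS than in progenitors or OKMS, with OKMS on both sides of the progenitor level. The middle row climbs in OKMS, and in the bottom row OKMS values lie below OKS.

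Genes of ribosome assembly were higher in OKMS as a group. All 38 listed nucleolar genes were called higher, none lower, with a median log2 difference of 1.89 against -0.17 over all genes tested, and the median per pair ranged from 1.79 to 2.17. Npm1, nucleophosmin, a histone chaperone of the nucleolus, stood at 2869, 5167, 4168, 2718 and 3982 CPM in OKMS and 814, 756, 969, 487 and 576 CPM in OKS. Every OKMS library was above every OKS library, and the fitted difference was 2.39 ± 0.18 (SE, limma adjusted p = 1.60e-05). Dkc1, the pseudouridine synthase dyskerin, stood at 103, 259, 183, 137 and 112 CPM against 28.1, 22.9, 34.8, 16.0 and 15.8 CPM. The RNA helicase Ddx21, which acts in ribosomal RNA synthesis, stood at 272 ± 60.4 CPM against 50.7 ± 17.7 CPM (SD, n = 5 each). Rrp1b, a ribosomal RNA processing protein, stood at 73.4 ± 20.6 CPM against 13.3 ± 4.36 CPM (SD, n = 5 each). Subunits of RNA polymerase I were among them, Polr1a at a log2 difference of 1.45 and Polr1b at 2.06, as were the box C/D proteins Nop56 (2.31) and Nop58 (1.71). The smallest difference of the list was that of Imp4 (1.01).

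One-carbon, nucleotide and polyamine enzymes were higher for 22 of 29 tested genes, none lower, with a median of 1.85. Mthfd2, which makes formyl groups from folate in mitochondria, stood at 73.5, 77.2, 30.0, 64.0 and 121 CPM in OKMS and 6.69, 6.68, 2.68, 6.72 and 8.96 CPM in OKS. The groups were far apart, with a difference of 3.28 ± 0.23 (SE, limma adjusted p = 1.23e-05). Rrm2, the regulated subunit of ribonucleotide reductase, stood at 189.8, 248, 263, 263 and 526 CPM against 20.1, 40.1, 53.5, 41.8 and 54.2 CPM. Shmt1, serine hydroxymethyltransferase of the cytosol, and Mthfd1l, of the mitochondrial folate pathway, had log2 differences of 3.06 and 2.71. Spermidine synthase Srm (2.65), spermine synthase Sms (2.42) and Cad, which starts pyrimidine synthesis (2.59), were called higher too. Not called were Odc1, the first enzyme of polyamine synthesis and a textbook Myc target (0.12), Ctps (-0.17), Paics (0.25), Prps2 (0.33), Psph (0.62), Umps (0.65) and the serine synthesis enzyme Phgdh (-0.49).

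Translation factors, chaperonins and amino acid transporters were called higher for 15 of 24, none lower, with a median log2 difference of 1.18. Slc7a1, the cationic amino acid transporter, stood at 23.7, 48.0, 25.9, 41.9 and 75.1 CPM in OKMS and 2.67, 5.72, 1.34, 5.97 and 11.5 CPM in OKS. Hspd1, the mitochondrial chaperonin, stood at 1188 ± 253 CPM against 229 ± 35.5 CPM (SD, n = 5 each). Eif5a, whose hypusine is made from spermidine, stood at 2320.0 ± 338 CPM against 667 ± 109 CPM, and the transferrin receptor Tfrc at 68.2 ± 22.2 CPM against 12.2 ± 1.65 CPM. The list was not uniform: Slc3a2, the shared chain of several amino acid transporters, lay at -0.72, and Slc1a5 (0.01) and Slc38a2 (0.09) were not called.

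Because Myc with Max binds the E-box CACGTG, the 300 bases around the start sites of these genes (250 before to 50 after, RefSeq, GRCm38.p6) were searched for it. The motif reads the same on both strands, and no other motif was searched. It stood in 7 of 35 windows of the nucleolar list (20.0%), 7 of 33 of the nucleotide list (21.2%) and 8 of 31 of the translation list (25.8%). It stood in 4 of 34 windows of the DNA replication list (11.8%), in 0 of 27 of the mitosis list, and in 2349 of all 32851 windows of the table (7.15%). A match is a run of letters and does not show binding. Among windows of genes tested here the share was 9.97%, with 13.3% among genes called higher, 7.82% among genes called lower and 10.0% among genes not called, but only 68.3% of the genes tested had a window, too few for a comparison. The motif also stood in 4 of 15 windows of the Myc family list (26.7%) and in 5 of 17 of the p53 list (29.4%, with a window for 77.8% of its genes), so a high share was not particular to the growth lists. Below are stretches upstream of the start site of 5 genes called higher in OKMS, shown because they carry the motif in the 3 growth lists, with the E-box in capitals.
Nop2 (chr6:125131763-125131882, + strand): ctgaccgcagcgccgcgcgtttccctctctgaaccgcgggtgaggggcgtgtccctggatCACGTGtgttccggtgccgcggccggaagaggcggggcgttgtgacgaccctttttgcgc
Imp4 (chr1:34439648-34439773, + strand): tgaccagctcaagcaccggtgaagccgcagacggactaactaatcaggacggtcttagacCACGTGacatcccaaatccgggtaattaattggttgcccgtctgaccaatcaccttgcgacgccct
Impdh2 (chr9:108560266-108560391, + strand): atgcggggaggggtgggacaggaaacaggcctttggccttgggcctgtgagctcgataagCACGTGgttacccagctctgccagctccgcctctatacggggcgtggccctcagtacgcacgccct
Tyms (chr5:30073626-30073746, - strand): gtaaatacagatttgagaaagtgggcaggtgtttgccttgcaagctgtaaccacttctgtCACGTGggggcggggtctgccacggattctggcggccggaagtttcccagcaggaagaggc
Eif4a1 (chr11:69672547-69672672, - strand): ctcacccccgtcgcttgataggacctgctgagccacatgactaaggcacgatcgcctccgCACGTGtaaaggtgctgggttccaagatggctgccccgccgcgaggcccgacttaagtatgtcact
Nop2 methylates ribosomal RNA, Imp4 belongs to the small subunit processome, Impdh2 makes guanine nucleotides, Tyms makes thymidylate and Eif4a1 is the helicase of the cap-binding complex. The motif starts at positions -60, -121, -110, -61 and -189 from the start site in that order. Their log2 differences were 2.27, 1.01, 1.96, 1.89 and 1.12.

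Cell division genes were higher in OKMS almost without exception. In the DNA replication list 33 of 36 genes were called higher, none lower (median log2 difference 1.90), and in the mitosis list 30 of 30 (median 1.94). Ccnb1, the cyclin that drives entry into mitosis, stood at 116, 173, 233, 149 and 295 CPM in OKMS and 21.4, 32.4, 37.5, 24.3 and 37.5 CPM in OKS, a difference of 2.58 ± 0.15 (SE, limma adjusted p = 8.24e-06). Mcm10, needed to fire origins, stood at 31.6, 50.1, 56.0, 47.4 and 87.4 CPM against 8.02, 5.72, 8.03, 5.22 and 11.5 CPM. In both genes the lowest OKMS library was well above the highest OKS library. The spindle kinase Aurka (2.73), the checkpoint kinase Bub1b (2.64) and the spindle motor Kif11 (2.57) were among the largest log2 differences of the mitosis list. The licensing factor Cdt1 (2.67), the helicase subunit Cdc45 (2.57) and Uhrf1, which carries DNA methylation through replication (2.55), were among those of the replication list. Gins4 (0.58), E2f1 (0.75) and Rfc3 (0.78) were not called.

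Regulators of G1 moved both ways, with 2 of 16 called higher and 5 lower, against 10.6% and 16.1% of all genes, and 3 each way with median centring. The CDK inhibitors Cdkn2c, which fell from 111 ± 23.7 CPM in OKS to 30.4 ± 28.8 CPM in OKMS (SD, n = 5 each), Cdkn2b (-1.81) and Cdkn1b (-1.14) were lower, as were the pocket protein gene Rbl2 (-1.40) and cyclin Ccnd2 (-1.13). Cdk2 (1.09) and Cdk4 (1.04) were higher. The p53 target and CDK inhibitor Cdkn1a was not called, with 453 ± 111 CPM in OKMS and 243 ± 38.4 CPM in OKS (SD, n = 5 each, log2 difference 0.87). Of 18 p53 targets, again beside 10.6% and 16.1% of all genes, 4 were called higher, among them Perp, also a desmosome protein (2.67), and Zmat3 (1.45), and 4 lower, among them Gadd45a (-1.78) and Sesn1 (-1.45). Cdkn1b lost its call with median centring, thinned reads, no pair block or without the R10 pair of day 6.

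Measured against the uninduced progenitors of the same chemistry, the gap lay more in low OKS levels than in high OKMS levels. Those progenitors were in progenitor medium, so this split depends on the reference. For the lists given here, both systems lay above the wild-type cells in FBS-LIF. The median mitosis gene stood at -0.84, 0.03, 0.04, -0.59 and 0.23 on the log2 scale relative to progenitors in OKMS and at -2.51, -1.95, -1.88, -2.89 and -2.23 in OKS. Wild-type cells after 2 days in the same medium stood at -5.31, -4.91 and -5.25, so OKS lay between wild type and OKMS. The median nucleolar gene stood at 0.25, 0.88, 0.71, 0.52 and 0.78 in OKMS, above progenitors, and at -1.57, -0.99, -1.02, -1.57 and -1.06 in OKS. Wild-type cells stood at -1.87, -1.68 and -1.91 for this list. For DNA replication the values were -0.37, 0.25, 0.37, -0.12 and 0.40 in OKMS and -1.78, -1.72, -1.65, -1.89 and -1.59 in OKS. Wild-type cells stood at -2.79, -2.98 and -3.27 for DNA replication. The progenitor lines themselves differed by -0.02 and 0.03 (R9 and R10) for the median mitosis gene and by 0.07 and -0.01 for the median nucleolar gene.

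The difference between systems at days 2 to 6 was tested against the difference between the same lines before induction, over 7 pairs. The change was positive for 721 of 15424 genes (4.67%) and negative for 259 (1.68%). With a pseudocount of 0.25 these counts were 638 and 126, and with no filter 494 and 46. Positive changes covered 29 of 30 mitosis genes, 31 of 38 nucleolar genes, 27 of 36 replication genes, 20 of 29 nucleotide genes and 13 of 24 translation genes, with no negative change in these lists. Among lists lower in OKMS, negative changes covered 4 of 18 neural progenitor genes, 2 of 17 astrocyte genes, 2 of 23 matrix genes, 1 of 15 smooth muscle genes, 1 of 13 AP-1 genes and 0 of 15 mesenchymal genes. On simulated counts, with a smaller minimum difference than the calls need, limma recovered 20% of 4-fold changes in this contrast. Of the 1539 genes higher in OKMS, 685 also changed in the same direction by this test, and of the 2338 lower genes, 234. This test shares the early libraries with the first comparison, so the overlap is no separate support. The largest coefficients belonged to Prelid2 (5.20 ± 1.21, SE), Phkg1, a phosphorylase kinase subunit (-4.57 ± 1.07), Resp18 (-4.54 ± 0.73), Foxd1 (4.44 ± 1.08) and Tfap2c (4.42 ± 0.86). Prelid2, Foxd1 and Tfap2c could pass the filter through OKMS alone and Resp18 through OKS alone, so their coefficients are a description.

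**Figure D3:**
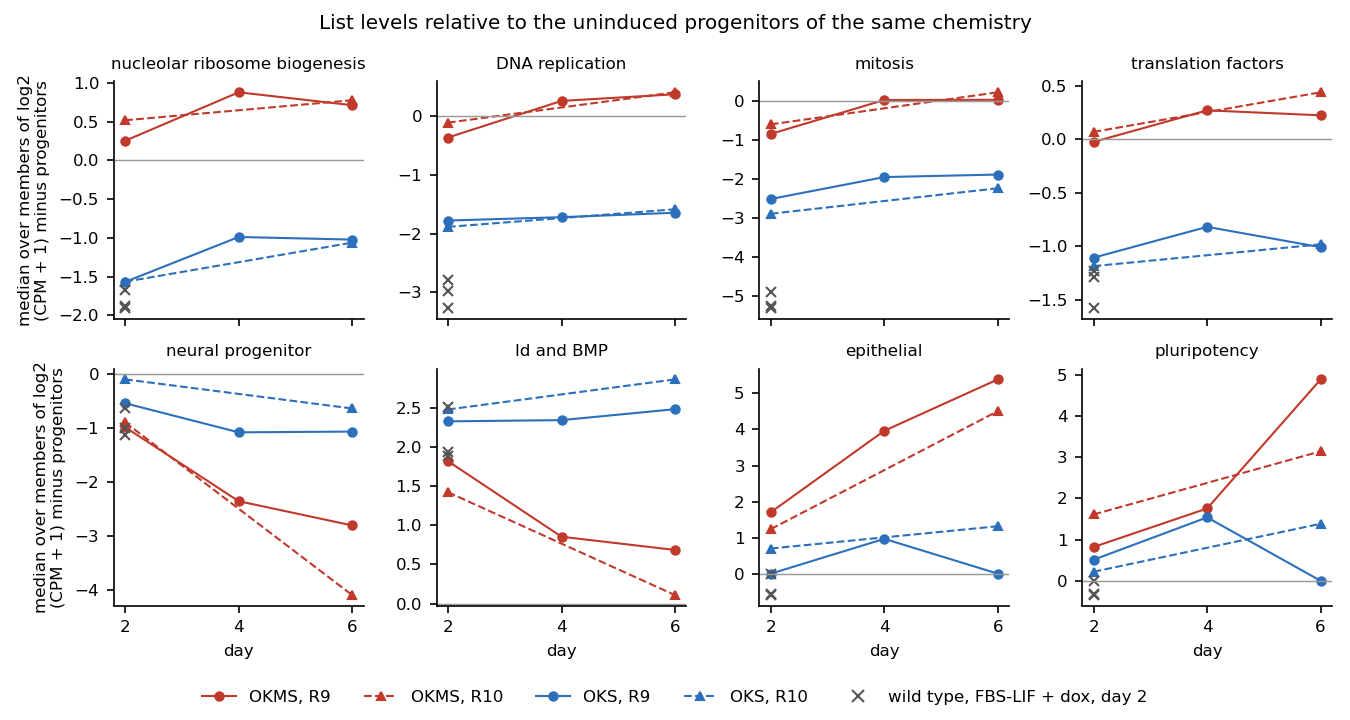
Median over the members of 8 gene lists of log2(CPM + 1) minus the uninduced progenitors of the same chemistry, by day, with 1 point a library and crosses for wild-type cells at day 2. Growth and division lists stay within 1 log2 unit of progenitors in the 5 paired OKMS libraries plotted and lie lower in OKS, while neural progenitor and Id genes lie lowest in OKMS at days 4 and 6.

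The median of the neural progenitor list lay below the uninduced level in all 10 libraries, least so in the OKS library of day 2 in R10, and it was lower in OKMS than in OKS in 5 of 5 pairs. Of 18 tested neural progenitor genes, 13 were called lower in OKMS and none higher, with a median log2 difference of -1.39. Olig2, a lineage factor of ventral progenitors, was at 139 to 238 CPM before induction, at 4.52, 0, 1.36, 2.37 and 0 CPM in OKMS and at 17.4, 9.54, 6.69, 6.72 and 5.55 CPM in OKS. Ptprz1, a receptor phosphatase of radial glia, was at 218 to 245 CPM before induction, 15.8, 4.17, 2.73, 19.8 and 0.883 CPM in OKMS and 34.8, 22.9, 33.5, 47.4 and 49.5 CPM in OKS. Wild-type cells after 2 days in the same medium were low too, at 9.90, 3.52 and 5.27 CPM of Olig2 and 25.5, 77.9 and 36.2 CPM of Ptprz1. OKMS and OKS did not overlap for either gene, as for 888 of the 2338 genes called lower, but they overlapped for Olig1 and Ncan. Olig1 (-2.20) and the proteoglycan Ncan (-2.17) were the other genes named, with Ncan at up to 271 CPM in OKS against 181 to 245 CPM before induction, and the long noncoding RNA Pantr1, next to the neural gene Pou3f3, fell with them (-1.91). Relative to progenitors, the median gene of the list stood at -0.98, -2.36, -2.81, -0.89 and -4.10 in OKMS and at -0.54, -1.08, -1.06, -0.10 and -0.64 in OKS. Wild-type cells at day 2 stood at -0.62 in R9 and at -0.99 and -1.12 in R10, below the OKS libraries of that day. The summed level of all listed members ranged from 1221 to 5812 CPM in OKMS and from 3667 to 10886 CPM in OKS, so the ranges overlapped.

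Astrocyte and acute phase genes, which serum is known to raise in neural progenitors, were lower in OKMS for 12 of 17 (median log2 difference -1.85). Gfap, the astrocyte intermediate filament, was at 0 to 3.08 CPM before induction, 119.8, 4.17, 9.55, 141 and 4.42 CPM in OKMS and 182, 67.7, 40.2, 546 and 149.8 CPM in OKS. Its values overlapped between systems, and wild-type cells held 236, 3015 and 1056 CPM. Clu, clusterin, stood at 581, 234, 186, 345 and 50.3 CPM in OKMS and 1197, 1480.0, 1633, 752 and 792 CPM in OKS, against 4.04 to 14.0 CPM before induction. Complement C3 (-2.93), S100b (-2.56), Apoe (-1.93) and vimentin Vim (-1.41) were lower as well. C3 already differed by -1.43 and -1.06 (R9 and R10) before induction, but at a few reads. Uninduced OKMS held 0 and 0.879 CPM and uninduced OKS 1.69 and 2.92 CPM of it. The change of C3 with induction was not called (limma adjusted p = 0.339). The gap junction gene Gja1 was the exception, called higher at 2.21 (80.1 ± 31.2 against 19.6 ± 12.1 CPM, SD, n = 5 each).

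Neuron genes split. Stmn2, a tubulin-binding protein of growing axons, stood at 128, 495, 315, 165 and 761 CPM in OKMS and 8.02, 12.4, 54.9, 51.9 and 111 CPM in OKS, against 0 to 5.26 CPM in progenitors. Neurofilament Nefl was higher too (3.28), while Map2 (-2.27) and Gap43 (-1.91) were lower. Only 6 of the 15 listed neuron genes passed the filter. Among the oligodendrocyte genes reported here, Mobp was higher (log2 difference 2.77), and Cnp (-1.39) and Cspg4 (-1.19) were lower. The Cspg4 call was lost under most alternatives.

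Mesenchymal, contractile and matrix genes were lower in OKMS. Of 15 mesenchymal genes 9 were called lower and none higher (median log2 difference -1.26), and 5 were lower with R9 and R10 averaged per day. Of 15 smooth muscle genes 10 were lower and 1 higher (-1.39), and of 21 collagen and matrix genes 12 were lower and 2 higher (-1.29). Myl9, a myosin light chain of contractile cells, was at 1.35 to 5.84 CPM before induction, 186, 27.1, 30.0, 115 and 8.83 CPM in OKMS and 317, 207, 206, 249 and 205 CPM in OKS. The homeobox gene Prrx1 of mesenchyme stood at 64.4, 18.8, 4.09, 41.9 and 2.65 CPM in OKMS and 73.5, 58.2, 75.0, 88.8 and 66.1 CPM in OKS. In both genes and both chemistries the systems were closer at day 2 than at day 6. N-cadherin Cdh2 (-2.14), Twist1 (-1.69), Tgfb2 (-1.49), Tagln (-1.78) and Ccn2, a target of YAP and TGF-beta (-1.75), followed. Within the collagen and matrix list, Col3a1 (-2.79), Col6a1 (-2.63), decorin Dcn (-2.54) and Timp3 (-2.41) led the falls. Before induction the lines already differed (R9 and R10) by -2.93 and -1.12 in Col3a1, -1.34 and -0.28 in Col6a1, -1.59 and -0.93 in Dcn and -1.72 and -0.50 in Ccn2. The R9 values rest on few reads. Uninduced OKMS in R9 held 1.35, 5.39, 2.69 and 1.35 CPM of them in that order, where 1 read is 1.35 CPM. Uninduced OKS in R9 held 16.9, 15.2, 10.1 and 6.75 CPM. The change with induction was not called for these 4 genes (limma adjusted p 0.204 to 0.61). Tagln2 (1.81), the laminin Lama1 (2.09) and Col18a1 (2.00), both of basement membrane, were higher.

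Many signal-response genes were lower in OKMS. Of 13 AP-1 and immediate early genes 10 were called lower, none higher (median log2 difference -1.45), beside 16.1% of all genes lower. Fos stood at 249.8, 123, 95.5, 111 and 15.0 CPM in OKMS and 451, 707, 407, 285 and 527 CPM in OKS, against 13.2 to 60.7 CPM before induction and 46.7, 37.2 and 34.3 CPM in wild-type cells. OKS was thus the highest of these groups, and it did not overlap with OKMS. The lines already differed in Fos before induction, by -2.09 and -1.30 in R9 and R10, and the change with induction was not called (-0.67 ± 0.79, SE, limma adjusted p = 0.639). Egr1 (-2.19), Junb (-2.05) and Ier3 (-2.17) were lower with it. Of 12 ERK feedback targets 6 were lower, among them Phlda1 (-1.50), Spry2 (-1.26) and Dusp6 (-1.25). With median centring 4 were lower.

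Targets of BMP signalling were lower for 8 of 11, none higher (median log2 difference -1.30). Id3, an inhibitor of basic helix-loop-helix factors, was at 366 to 598 CPM before induction, 2302, 768, 804, 2682 and 407 CPM in OKMS and 3487, 4129, 4044, 4928 and 3931 CPM in OKS. OKS stayed near the wild-type values (3715, 3334 and 3716 CPM), and the OKMS values were lowest at days 4 and 6. Id1 (-1.55), Smad6 (-2.05) and Smad7 (-1.45) were lower too. In the LIF-STAT3 list 6 of 13 were lower, including the receptor chain Il6st (-1.97) and Socs3 (-1.29), and Lif itself was called higher at 1.58 to 6.26 CPM against 0 to 1.28 CPM, a few reads per library. Notch genes split, with the ligand Jag2 higher (2.74) with Nrarp (1.07), and 5 of 13 lower, Hes1 (-1.40) and Lfng (-1.10) among them. With median centring 1 of the 5 lower Notch calls was left. Interferon and MHC class I genes gave 4 of 14 lower, including H2-D1 (-1.47), and Bst2 higher (1.48), beside 16.1% lower and 10.6% higher of all genes. Their median log2 difference was -0.87, and it was negative in each pair (-0.55 to -1.17). With median centring 3 were lower.

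**Figure D4:**
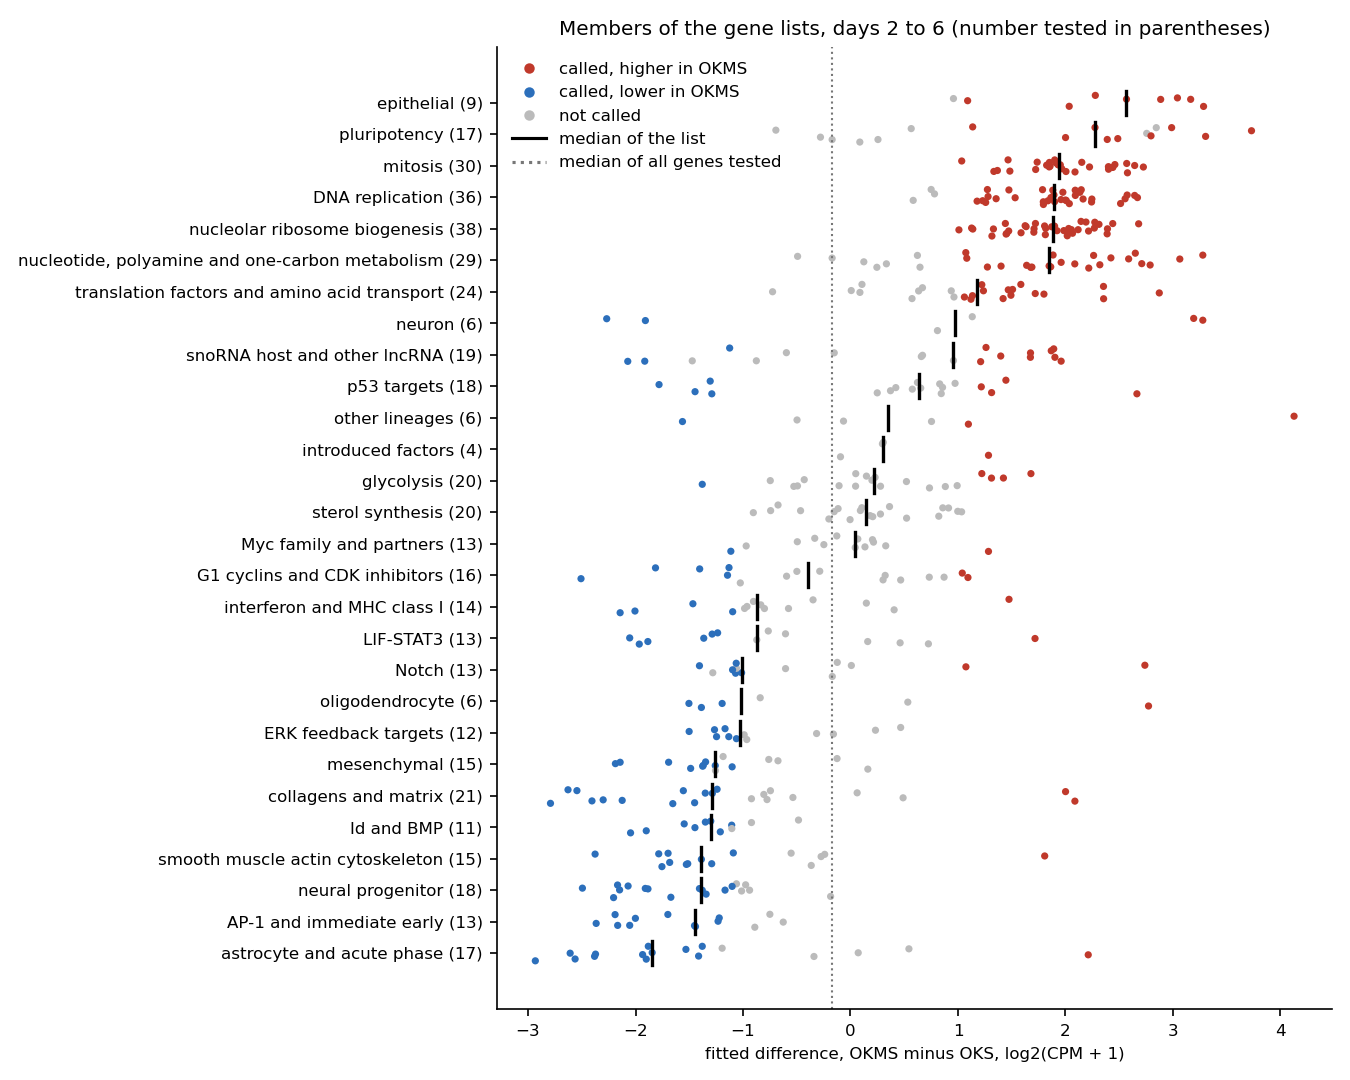
Fitted difference (OKMS minus OKS, log2(CPM + 1)) of every tested member of 28 gene lists, with coloured points called by limma, grey points not called, black bars for list medians and a dotted line for the median of all genes. Division and ribosome lists lie wholly to the right, with medians of 1.89 to 1.94, and astrocyte and AP-1 lists lie mostly to the left.

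Epithelial genes were higher in OKMS, from a floor near 0. Of 23 listed, 9 passed the filter, and since that filter could be met by OKMS alone, their counts only describe them: 8 were called higher, none lower. Cdh1, E-cadherin, stood at 7.91, 16.7, 57.3, 8.69 and 56.5 CPM in OKMS and 1.34, 0, 0, 3.73 and 4.27 CPM in OKS. Epcam, an epithelial adhesion molecule, stood at 2.26, 25.0, 201, 3.16 and 80.4 CPM against 0, 0.954, 4.02, 1.87 and 2.56 CPM. Both were highest at day 6, where the values in OKMS were many times those of day 2. Desmoplakin Dsp (3.04) and keratins Krt8 (2.89) and Krt18 (2.57) were called too, and Ocln was not (0.96).

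Of 26 listed pluripotency genes other than the introduced factors, 17 passed the filter, which OKMS alone could meet here too, so the counts only describe them: 9 were called higher and none lower. Nanog, a core pluripotency factor, stood at 3.39, 20.9, 90.1, 3.16 and 69.8 CPM in OKMS and 1.34, 2.86, 0, 2.99 and 1.28 CPM in OKS. At day 2 both systems were near the progenitor level (0 to 5.06 CPM), and at day 6 OKMS stood apart. Its overall difference was 2.99 ± 0.81 (SE, limma adjusted p = 0.0135), a description like the counts, since OKMS alone met the filter. L1td1, an RNA-binding protein of stem cells (3.73), the nuclear receptor Nr0b1 (3.30) and Gdf3 (2.80) were called. Fgf4 (0.26), Esrrb (0.57), Klf2 (-0.69) and Tfcp2l1 (-0.17) were not.

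The change of the OKMS minus OKS difference from day 2 to day 6 was tested directly. It was positive for 34 of 14530 genes (0.234%) and negative for 366 (2.52%). With a pseudocount of 0.25 the counts were 14 and 272, and with no filter 7 and 207. Among the pluripotency and epithelial genes that passed the filter, which their OKMS levels alone could meet, 5 of 17 and 2 of 9 were positive, as a description. The largest were Mdk, the growth factor midkine (6.62 ± 1.22, SE), Utf1 (6.13 ± 1.27), Dppa5a (6.07 ± 1.35), Nanog (5.25 ± 0.89) and Tdgf1, a Nodal co-receptor (5.04 ± 1.09). Dppa5a stood at 5.65, 8.35, 577, 14.2 and 102 CPM in OKMS and 8.02, 2.86, 0, 7.46 and 8.96 CPM in OKS, so only the day 6 libraries of OKMS stood out. The limma adjusted p-values of these 5 changes ran from 0.00471 to 0.0249. Utf1, Dppa5a and Nanog could pass the filter through OKMS alone, so their values are a description.

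Widening falls were found for 7 of 15 smooth muscle genes, 5 of 15 mesenchymal genes, 5 of 17 astrocyte genes and 3 of 11 Id and BMP genes. Myl9 (-2.63 ± 0.46, SE), Prrx1 (-3.42 ± 0.50) and Id3 (-2.06 ± 0.38) were among them. None of the nucleolar, nucleotide, translation, replication or mitosis genes passed this test in either direction, but on simulated counts limma recovered only 1% of 2-fold and 22% of 4-fold changes in this contrast. At day 2 the median nucleolar gene differed by 1.79 in R9 and 2.17 in R10, and the median mitosis gene by 1.67 and 2.26. Of the genes lower over all days, 343 of 2338 also fell further from day 2 to day 6, and of those higher, 18 of 1539 rose further. By edgeR the counts of positive and negative changes were 135 and 721.

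To place whole libraries, each was projected on the line from progenitors (0) to embryonic stem cells (1), using genes that differed between those cells in the other chemistry. The progenitor end was the mean of the uninduced OKMS, OKS and wild-type libraries of the same chemistry. The stem cell end was the mean of 2 libraries in R9 (lines O4G and R1) and 7 in R10 (O4G, R1 and R1 clone 3). An R10 library of line R1 is titled as 2i-LIF, and the other stem cell titles name no medium. The part of medium in the axis was not tested. OKMS libraries stood at 0.175, 0.336 and 0.426 in R9 at days 2, 4 and 6 and at 0.194 and 0.475 in R10 at days 2 and 6. OKS libraries stood at 0.0955, 0.127 and 0.139 in R9 and at 0.0768 and 0.137 in R10. OKMS was further along in 5 of 5 pairs, by 0.206 ± 0.109 (SD, n = 5), with an exact two-sided sign-flip permutation p of 0.0625, the smallest possible. The difference was 0.0800 and 0.117 at day 2 and 0.286 and 0.338 at day 6. Wild-type cells at day 2 stood at 0.0633 to 0.0723, just below OKS. The axis weighs all genes that separate the cell types, including growth genes, and is no measure of pluripotent cells.

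**Figure D5:**
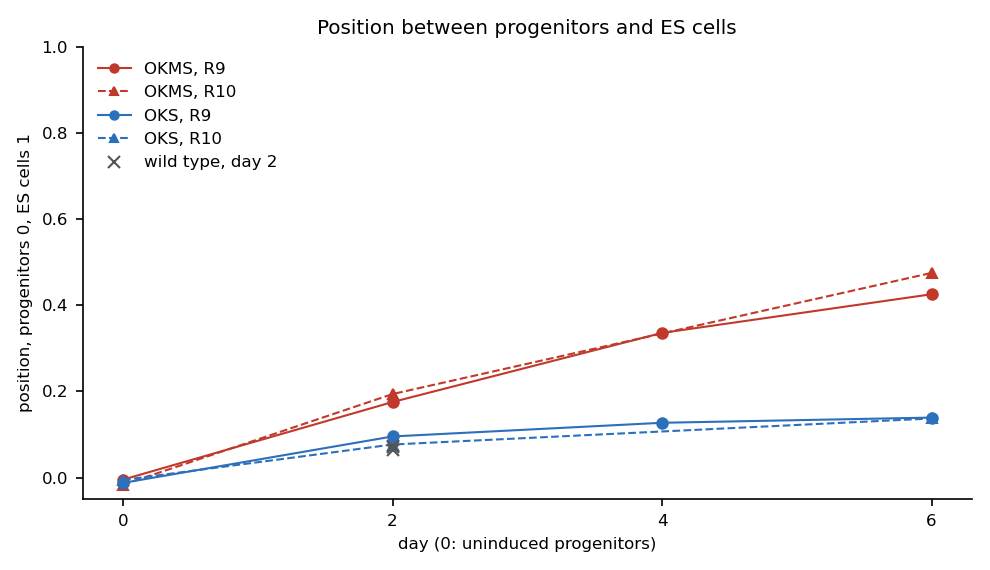
Position of each library between uninduced progenitors (0) and embryonic stem cells (1), by day, with 1 point a library. OKMS climbs to 0.426 and 0.475 at day 6, while OKS stays at or below 0.139 and wild-type cells at day 2 lie at 0.0633 to 0.0723.

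Some lists showed few or divided differences. Glycolysis genes gave 4 of 20 higher and 1 lower, beside 10.6% and 16.1% of all genes. Lactate dehydrogenase Ldha stood at 2364 ± 929.6 CPM in OKMS and 712 ± 169 CPM in OKS (SD, n = 5 each), with the glucose transporter Slc2a3 (1.42), Pdk1 (1.31) and Pkm (1.22), while Aldoc, the aldolase of brain, was lower (-1.38). Most glycolysis genes, Hk2 (0.05), Aldoa (0.23) and Slc2a1 (-0.11) among them, were not called. Sterol synthesis gave 0 of 20 calls by limma, 2 by edgeR and 4 with median centring, with Fasn closest to one (0.91 ± 0.16, SE, limma adjusted p = 0.00165, below the minimum difference). Of 13 genes of the Myc family and partners only Myc was higher and only Mxd4, a Max partner that opposes Myc, was lower (-1.11). The Mxd4 call was lost with median centring, with R9 pairs only and without the R10 pair of day 6, and its values overlapped between systems.

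In a mixed list of 24 hosts of small nucleolar RNAs and other long noncoding RNAs, 19 were tested, 9 were called higher and 3 lower, beside 10.6% and 16.1% of all genes. Snhg1 stood at 294, 628, 600.4, 481 and 599 CPM in OKMS and 140.4, 125, 161, 100.0 and 123 CPM in OKS, and Snhg12 differed by 1.90. Malat1, a nuclear RNA, was lower (-2.07), but it ranged from 732 to 11785 CPM among OKMS libraries and from 5173 to 21062 CPM among OKS libraries. By class, 41 of 764 long noncoding RNAs were called higher (5.37%) and 166 lower (21.7%), beside 10.6% and 16.1% of all genes. Their median log2 difference was -0.55. These class counts use CPM without further centring. Genes of other annotated types, neither protein-coding nor long noncoding, went the other way, 127 of 610 higher (20.8%) and 19 lower (3.11%). Reads of any pseudogenes among them may be shared with parent genes.

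With the day 10 to 20 cultures of the same medium (4 pairs), early minus late, the OKMS minus OKS difference changed upward for 55 of 16788 genes (0.328%) and downward for 14 (0.0834%). Of the growth lists, 8 of 29 nucleotide genes, 6 of 38 nucleolar genes, 2 of 24 translation genes, 1 of 36 replication genes and 0 of 30 mitosis genes were among the former, with none among the latter. Shisa3, an antagonist of Wnt and FGF receptors, stood at 70.1, 134, 101.0, 57.7 and 66.2 CPM in OKMS and 40.1, 39.1, 61.6, 21.3 and 44.8 CPM in OKS early, and at 22.5, 36.9, 0 and 0 CPM and 132, 119.9, 14.4 and 24.3 CPM late (R9 days 10, 14 and 20, R10 day 18), so its direction turned. Pkp1, a desmosome protein (3.53 ± 0.64, SE), Rpph1 (4.02 ± 0.81), Resp18 (-3.97 ± 0.80) and the activin subunit Inhbb (-3.62 ± 0.71) were the other large changes. Pkp1, higher in OKMS in 5 of 5 early pairs, was lower in 4 of 4 late pairs (at 0, 9.50, 1.23 and 2.97 CPM against 4.46, 21.5, 3.59 and 8.96 CPM), and Inhbb, lower in 5 of 5 early pairs, was higher in 4 of 4 late pairs (at 9.85, 16.9, 24.6 and 4.45 CPM against 0, 8.27, 5.75 and 0 CPM). The count rests on the treatment of low values: with a pseudocount of 0.25 in place of 1 it fell from 69 genes to 1, and with no filter to 2.

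Both chemistries gave the comparison. No gene changed its difference between R9 and R10 by limma (343 at an unadjusted p under 0.05) or by edgeR (0 called, 321 at an unadjusted p under 0.05). On simulated counts, limma recovered 0% and edgeR 25% of 4-fold changes in this contrast, so the test could find little. The 3 R9 pairs alone called 2518 genes. The R10 pairs alone, with 1 residual degree of freedom, called 0, with 4505 at an unadjusted limma p under 0.05.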

How the data were processed

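Bulk RNA of the libraries was sequenced as nanopore cDNA. The deposited gene table gives CPM (counts scaled to a common library total), made by the authors, and the deposited transcript table gives TPM with a structural category per transcript. Per the submitters' processing notes, minimap2 2.24-r1122 and mm10 were used. The deposited tables are named for IsoQuant, and its version and use of strand are not given in the sources used here. Multiples of 1 read were recovered for 100% of values (tolerance 0.02 reads), and 13 columns that match no sample were not used.

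CPM was tested as log2(CPM + 1) by limma 3.58.1 in R 4.3.3 (trended variance, day and chemistry pair as block) on genes with at least 1 CPM in at least 5 libraries, so differences understate the change of low genes. Calls needed a Benjamini-Hochberg adjusted p under 0.05 and a log2 difference of at least 1. Interaction terms tested changes of the difference with day, chemistry, induction and early against late days. edgeR 4.0.16 and DESeq2 1.42.0 on the recovered reads were alternatives. In every simulated contrast 200 genes were changed, and the minimum log2 difference was smaller than for the calls. The shares recovered are therefore not those of the calls reported. On simulated counts of the early comparison limma recovered 28% of 2-fold and 79% of 4-fold changes. Exact sign-flip tests used all assignments of sign to 5 pairs.

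Paired libraries share day and chemistry in their labels. Deviations of paired libraries from their group means correlated at r = 0.240 to 0.557 in the 5 pairs. In R9 the best match of day 4 was day 6. The rule for naming took the 4 factors, the 10 largest called rises and 10 falls with 1 sign in 5 pairs (2 more each way without annotation), up to 4 called members with the largest difference per list, and the 5 largest called coefficients per interaction. Other genes are named as contrasts within a list after their values were seen. Members and lists were chosen with earlier results of these data known.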

Additional observations from a re-analysis of the deposited data

Results flagged for a closer look

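In 3 of 135 named genes, 1 pair's log2 difference lay far from the other 4 (Dixon's criterion for 5 values), and chance flags about 1 in 20 groups. Klf4 differed by 0.81 in the R10 pair of day 6, against a median of 0.23 over the pairs. Slc7a1 differed by 3.53 in the R9 pair of day 6, against a median of 2.75. Mcm10 differed by 1.86 in the R9 pair of day 2, against a median of 2.82.

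Several genes differed between systems by an amount that itself changed with condition, by limma interaction tests adjusted over all genes. From before induction to days 2 to 6, the log2 difference changed by 5.20 ± 1.21 (SE) for Prelid2, 4.42 ± 0.86 for Tfap2c, 4.44 ± 1.08 for Foxd1, -4.54 ± 0.73 for Resp18 and -4.57 ± 1.07 for Phkg1. Prelid2, Tfap2c and Foxd1 could pass the filter on low values through OKMS alone and Resp18 through OKS alone, so their coefficients are a description. From day 2 to day 6 the log2 difference changed by 6.62 ± 1.22 (SE) for Mdk, 6.13 ± 1.27 for Utf1, 6.07 ± 1.35 for Dppa5a, 5.25 ± 0.89 for Nanog and 5.04 ± 1.09 for Tdgf1. Utf1, Dppa5a and Nanog could pass the filter through OKMS alone, so theirs are a description too. Early minus late, the log2 difference changed by 4.23 ± 0.53 (SE) for Shisa3, 4.02 ± 0.81 for Rpph1, 3.53 ± 0.64 for Pkp1, -3.62 ± 0.71 for Inhbb and -3.97 ± 0.80 for Resp18. Rpph1 was listed at 0 in all R9 libraries of days 10 to 20, so its late value rests on the R10 pair of day 18.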

How the results depend on the processing

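The early comparison called 3877 genes, and 3121 without the pair block (no pairing). R9 pairs only gave 2518, R10 pairs only 0, and no minimum difference 5891. Leaving out each pair gave 2928 to 4289. Other alternatives gave 3213 (minimum 5 CPM) to 4211 (with the unpaired OKMS library of day 4), with edgeR at 3680, DESeq2 at 3297 and thinned reads at 3305. The edgeR calls shared 3433 genes with limma's. The change with day (400) became 214 with no filter and 856 by edgeR. The change with induction (980) became 540 with no filter. Early minus late (69) became 1 with pseudocount 0.25 and 2 with no filter. Pou5f1 reversed to -0.032 without the R9 pair of day 6, over a range of -0.032 to 0.45 on leaving out pairs. Sox2 reversed to 0.059 with median centring, to 0.12 with R9 pairs only and to 0.0032 without the R9 pair of day 4, and ranged from -0.25 to 0.0032 on leaving out pairs. The causes were not tested. The position between progenitors and stem cells differed by 0.173 to 0.238 on leaving out pairs. Of the 135 named genes (128 called), 99 kept direction and side of the threshold wherever the 19 settings other than R10 pairs only gave a value (114 genes at minimum 5 CPM, 133 with thinned reads). The median of the Myc family turned from 0.04 to -0.26 with thinned reads, -0.02 with R9 pairs only and -0.26 without the R9 pair of day 6, and that of the oligodendrocyte genes turned from -1.02 to 0.53 at minimum 5 CPM. At 478805 reads in the shallowest library, 1 CPM is under 1 read.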

Other observations

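The OKMS library of day 4 in R10 has no OKS counterpart and entered no pair. It stood at 0.353 between progenitors and stem cells, between the OKMS libraries of days 2 and 6 of that chemistry. It held 23.4 CPM of Nanog, 16.0 CPM of Cdh1, 42.6 CPM of Tfap2c and 661 CPM of Id3. Its Dppa5a stood at 9.58 CPM and its Utf1 at 3.19 CPM, both at the level of day 2. Among growth genes it held 4475 CPM of Npm1 and 234 CPM of Ccnb1.

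Across the libraries compared, the mitosis list had its highest summed level in OKMS at 7377 CPM and its lowest at 198 CPM in the wild-type cells of day 2, with OKS at 847 to 1696 CPM and uninduced progenitors at 5997 to 6561 CPM. The summed neuron genes ranged from 336 to 885 CPM in OKMS, 241 to 377 CPM in OKS and 526 to 695 CPM in uninduced progenitors. AP-1 and immediate early genes summed to 1443 to 2913 CPM in OKS and 289.7 to 1296 CPM in OKMS, against 503 to 637 CPM in uninduced progenitors and 518 to 658 CPM in wild-type cells at day 2.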
